A study of Rattus norvegicus with 7 samples.

Results

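Emp2 (ENSRNOG00000002664) and Cldn18 (ENSRNOG00000030386), both used here as genes of alveolar type 1 cells, were examined in fetal rat lung beside Nkx2-1 (ENSRNOG00000008644), a gene of the whole lung epithelium, and Drc1 (ENSRNOG00000024905), a gene of motile cilia. The 4 genes were picked by identifier from the 23918 genes of the count table, with Nkx2-1 serving as the epithelial reference against which the others were set. They were chosen with earlier results of these data known. Sprague-Dawley dams were given PBS (control) or LPS of E. coli O55:B5 into the amniotic sac on gestational day 18, at 10 µg per injection by the design text and an incomplete number in the sample labels. Fetuses labelled E18 gave lung tissue 24 h after the injection, and polyA RNA of 3 control and 4 IA LPS lungs was sequenced as paired 150 bp reads. LPS, lipopolysaccharide, is a cell wall component of Gram-negative bacteria, and IA stands for intra-amniotic. The litter of each fetus was not given in the sources used here, so p-values measure the spread between these lungs. The question was whether genes used as markers of epithelial cell types differed between IA LPS and control lungs when the epithelium as a whole was taken into account.

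Type 1 cells are the thin, flat cells that cover most of the alveolar surface and form its barrier for gas exchange. They arise in the distal lung epithelium before birth, alongside the cuboidal type 2 cells that make surfactant, while the ciliated cells of the conducting airways differentiate from a separate, proximal epithelium. Nkx2-1 encodes the homeodomain transcription factor that marks the lung epithelial lineage from its start, and it is also made in the thyroid.

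The total count was 25031827, 26844367 and 27724439 in control replicates 1 to 3, and 28164960, 28336525, 27332721 and 27401107 in IA LPS replicates 1 to 4. At these depths 3 counts, taken as the floor of detection, corresponded to 0.105 to 0.124 CPM (counts scaled to library size with TMM factors), a floor that covers counting error alone. The first principal component of log2 CPM, with 38.8% of the variance, placed IA LPS replicate 4 at a score of 71.8, far from the other lungs, which lay between -31.9 and 10.9. The study left this lung out of its own comparison, so the fits of Emp2, Cldn18 and Drc1 are given with it and without it. Permutation tests, correlations, ratios among these 3 genes and the fit relative to Foxa1 and Cldn3 used all 7 lungs only. Lung epithelium was present in every sample, with Nkx2-1 at 310.4 CPM or more and the type 2 cell gene Sftpc at 478 CPM or more. Of the type 1 cell marker Aqp5, 2 to 3 counts were present in the controls, at or under the floor, and Ager, Pdpn and Hopx, the other common markers of these cells, were not analysed here because their names were not paired with identifiers.

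Emp2, which encodes a membrane protein of the tetraspan family, was at 117, 162 and 127 CPM in control replicates 1 to 3 and at 241, 190.0, 183 and 227 CPM in IA LPS replicates 1 to 4. The 4 IA LPS lungs were above all 3 controls, with control replicate 2 the highest of its group and IA LPS replicate 3 the lowest of the other. The means were 135 ± 23.3 CPM (SD, n = 3) and 210.3 ± 27.9 CPM (SD, n = 4), a 1.55-fold difference (95% interval 1.23 to 1.96). The log2 fold change was 0.63 (SE 0.148, adjusted p = 0.0970 by edgeR's quasi-likelihood test with Benjamini-Hochberg adjustment), and without IA LPS replicate 4 it was 0.59 (SE 0.142, adjusted p = 0.0535, edgeR). A gene counted as called, induced or suppressed, where its fold change reached 1.5 with p below 0.05 and adjusted p below 0.1, and Emp2 was called induced in both sets. In samples of whole lung, more cells of a type and more RNA of the gene per cell cannot be told apart.

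Cldn18 encodes a claudin of epithelial tight junctions and was read here as a type 1 cell gene, though its RNA was not traced to a cell type. It was at 194, 285 and 213 CPM in control replicates 1 to 3 and at 375, 335, 337 and 412 CPM in IA LPS replicates 1 to 4. Its groups did not overlap, and as for Emp2 replicate 2 was the highest control. The mean rose from 230.3 ± 48.1 CPM (SD, n = 3) to 365 ± 36.5 CPM (SD, n = 4), 1.58-fold (95% interval 1.25 to 2.01). With a log2 fold change of 0.66 and an SE of 0.150 (adjusted p = 0.0925 by edgeR's quasi-likelihood test with Benjamini-Hochberg adjustment), Cldn18 was called induced, as it was without IA LPS replicate 4 (0.60, SE 0.136, adjusted p = 0.0466, edgeR).

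Nkx2-1 was at 310.4, 389 and 324 CPM in control replicates 1 to 3 and at 353, 351, 377 and 365 CPM in IA LPS replicates 1 to 4. The groups overlapped, because control replicate 2 was above every IA LPS lung, while the other controls were below all of them. Mean values were 341 ± 42.0 CPM (SD, n = 3) and 361 ± 12.2 CPM (SD, n = 4). The fold change was 1.06, with a 95% interval of 0.900 to 1.25 that leaves out the 1.5-fold threshold in either direction. Nkx2-1 was not called (log2 fold change 0.08, SE 0.103, adjusted p = 0.722 by edgeR's quasi-likelihood test with Benjamini-Hochberg adjustment), and an exact two-sided permutation test of its log2 CPM gave p = 0.343.

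Drc1 encodes a subunit of the nexin-dynein regulatory complex, which links neighbouring microtubule doublets in the shaft of motile cilia. It had 60, 66 and 96 counts in control replicates 1 to 3 and 173, 150, 121 and 153 in the 4 IA LPS lungs, or 2.47, 2.44 and 3.37 CPM against 6.04, 5.45, 4.32 and 5.68 CPM. All IA LPS lungs were above all controls, and the nearest pair was control replicate 3 and IA LPS replicate 3. The mean rose from 2.76 ± 0.531 CPM (SD, n = 3) to 5.37 ± 0.744 CPM (SD, n = 4), 1.94-fold (95% interval 1.41 to 2.68). Drc1 was called induced with a log2 fold change of 0.96 and an SE of 0.203 (adjusted p = 0.0776 by edgeR's quasi-likelihood test with Benjamini-Hochberg adjustment), and again without IA LPS replicate 4 (0.93, SE 0.209, adjusted p = 0.0456, edgeR).

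**Figure D1:**
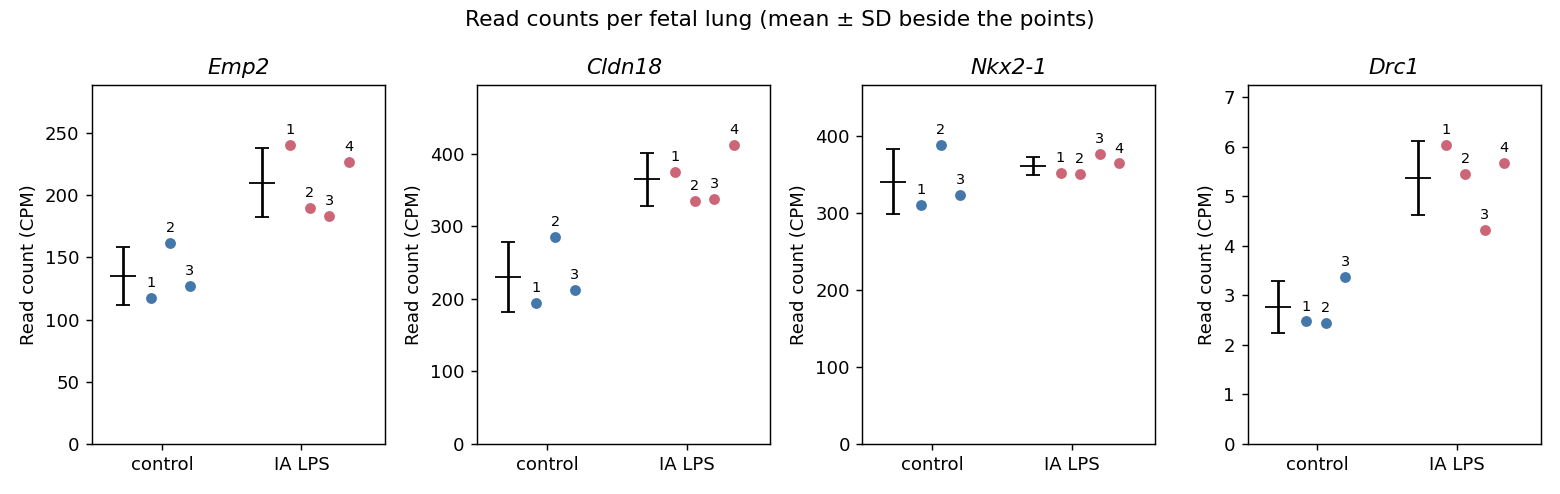
Read counts of Emp2, Cldn18, Nkx2-1 and Drc1 in CPM, 1 point per fetal lung with its replicate number, for 3 control and 4 IA LPS lungs; the black mark is the mean and its bar the SD. IA LPS lungs are above all controls for Emp2 (183 to 241 against 117 to 162 CPM), Cldn18 and Drc1, while for Nkx2-1 control replicate 2, at 389 CPM, is the highest lung.

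Over the 7 lungs, 3 of the 4 genes were called induced and none suppressed, where edgeR called 1.4% of the 15750 tested genes induced and 0.508% suppressed. The same 3 were called without IA LPS replicate 4, against 2.17% of the 15627 genes tested in that set. For 3 of the 4 genes every IA LPS lung was above every control, as for 10.6% of tested genes, and the exact two-sided permutation test of 3 lungs against 4 then gives its smallest possible value, p = 0.0571, for each of them. The log2 fold changes of Emp2, Cldn18 and Drc1 were at percentiles 94.1, 94.6 and 97.6 of all tested genes, and that of Nkx2-1 at percentile 60.8. Because the 4 genes were chosen with earlier results of these data known, none of these shares or percentiles is independent evidence.

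The calls of edgeR lay close to the adjusted p threshold and depended on single lungs. Over the 7 lungs, DESeq2's Wald test gave adjusted p-values of 0.00467 for Emp2, 0.00275 for Cldn18 and 0.00196 for Drc1. Those of limma-voom were 0.0986, 0.0857 and 0.0854 in the same order. Single lungs were left out only in edgeR fits. Emp2, Cldn18 and Drc1 each lost the call when control replicate 1, 2 or 3 or IA LPS replicate 1, 2 or 3 was left out of the 7. Over the 7 fits that each left out 1 lung, the log2 fold change of Emp2 ran from 0.54 to 0.78, that of Cldn18 from 0.55 to 0.85 and that of Drc1 from 0.88 to 1.13. The lowest value was reached without control replicate 1 for both type 1 cell genes and without control replicate 2 for Drc1. Without any one of the controls, or without IA LPS replicate 2, there were no more than 2 induced genes in the whole table, and leaving out IA LPS replicate 1 or 3 left 126 or 127, against 220 in all 7 lungs.

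Each gene was next set against Nkx2-1 within the same lung, which cancels any difference between lungs that scales all epithelial RNA alike. These ratios compare lungs, not the levels of different genes, since the counts were not divided by gene length. For every 100 Nkx2-1 counts there were 37.8, 41.6 and 39.3 Emp2 counts in control replicates 1 to 3 and 68.3, 54.2, 48.6 and 62.2 in IA LPS replicates 1 to 4. Relative to Nkx2-1 the controls lay close together, with a coefficient of variation of 4.82%, against 17.2% for Emp2 in CPM. Among the IA LPS lungs the ratio varied by 14.9%, with replicate 1 the highest and replicate 3 the lowest, still above every control.

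Cldn18 behaved much like Emp2 on this scale. Its count per 100 Nkx2-1 counts was 62.4, 73.2 and 65.6 in control replicates 1 to 3 and 106, 95.6, 89.4 and 113 in IA LPS replicates 1 to 4. The groups did not overlap, and the coefficient of variation of the controls was 8.29%, against 20.9% in CPM. Drc1 had 0.796, 0.627 and 1.04 counts per 100 Nkx2-1 counts in control replicates 1 to 3 and 1.71, 1.55, 1.14 and 1.56 in IA LPS replicates 1 to 4. Control replicate 3 and IA LPS replicate 3 were the nearest pair again, and the controls varied more relative to Nkx2-1 (25.4%) than in CPM (19.2%).

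For all 3 ratios every IA LPS lung was above every control, as for 4.64% of tested genes set against Nkx2-1 in the same way. When the Nkx2-1 count of each lung took the place of library size in the edgeR fit, the differences kept most of their size. The fold change of Emp2 was 1.47 (95% interval 1.17 to 1.85; log2 fold change 0.56, SE 0.148, adjusted p = 0.162 by edgeR's quasi-likelihood test with Benjamini-Hochberg adjustment). That of Cldn18 was 1.51 (95% interval 1.21 to 1.87; log2 fold change 0.59, SE 0.141, adjusted p = 0.125, edgeR) and that of Drc1 1.82 (95% interval 1.24 to 2.66; log2 fold change 0.86, SE 0.249, adjusted p = 0.194, edgeR). None of the 3 was called by edgeR on this scale, although their unadjusted p-values were 0.00339, 0.00165 and 0.00577, and limma on the log2 ratios called none either.

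On the scale of Nkx2-1 edgeR called fewer genes in all, 0.4% of 15749 induced, and the split between directions was more even. Induced genes made up 54.8% of its calls, against 73.3% with TMM, and the median log2 fold change of all tested genes was -0.09, against 0.01. Without IA LPS replicate 4 the fold changes relative to Nkx2-1 were 1.44 for Emp2, 1.45 for Cldn18 and 1.79 for Drc1. The adjusted p-values were then 0.0999, 0.0748 and 0.141 (edgeR's quasi-likelihood test with Benjamini-Hochberg adjustment), so that Emp2 and Cldn18 missed the call by their fold change. In that set 1.11% of 15626 genes were called induced. The log2 fold changes relative to Nkx2-1 stayed positive in each fit that left out 1 lung, from 0.48 to 0.64 for Emp2, 0.53 to 0.66 for Cldn18 and 0.70 to 1.07 for Drc1.

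**Figure D2:**
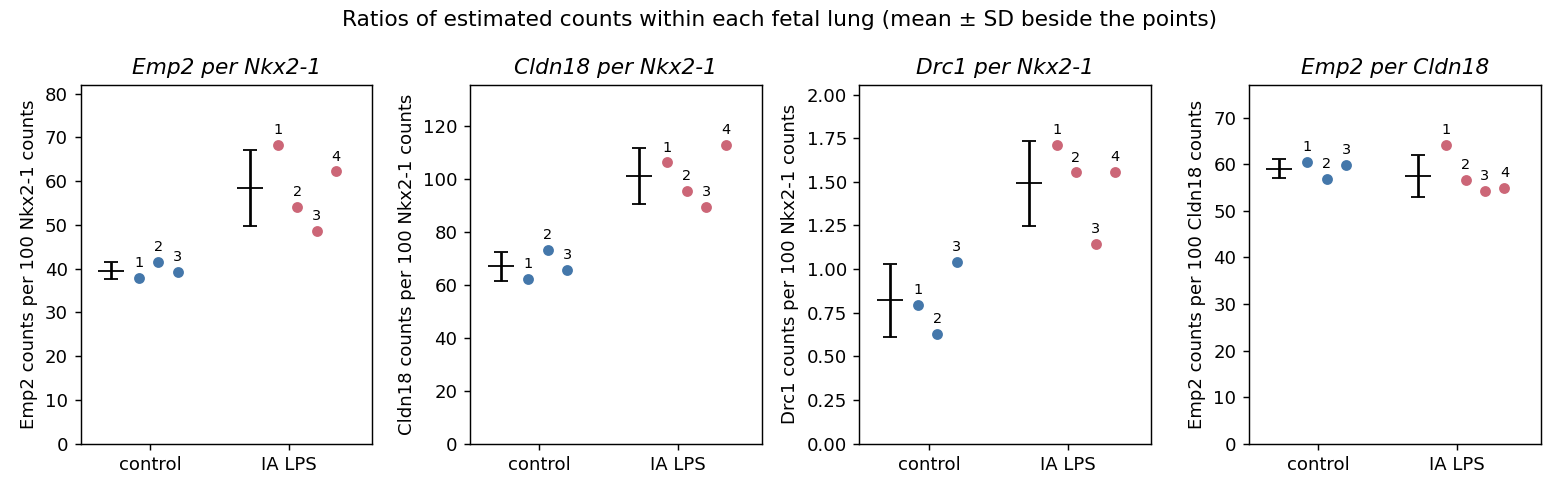
Estimated counts of 1 gene per 100 counts of another in the same fetal lung, 1 point per lung with its replicate number, for 3 control and 4 IA LPS lungs; the black mark is the mean and its bar the SD. Emp2, Cldn18 and Drc1 are higher relative to Nkx2-1 in all IA LPS lungs (for Emp2 48.6 to 68.3 against 37.8 to 41.6), whereas Emp2 relative to Cldn18 overlaps between the groups.

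The type 1 cell genes kept a nearly fixed proportion to each other. Per 100 Cldn18 counts there were 60.6, 56.8 and 59.9 Emp2 counts in control replicates 1 to 3 and 64.2, 56.7, 54.4 and 55.0 in IA LPS replicates 1 to 4. The groups overlapped, with means of 59.1 ± 2.01 (SD, n = 3) and 57.6 ± 4.54 (SD, n = 4), and the highest ratio, in IA LPS replicate 1, was beside the lowest in IA LPS replicate 3. The mean log2 ratio differed by -0.04 between IA LPS and control lungs (p = 0.629, exact two-sided permutation test).

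Drc1 was compared with the type 1 cell genes in the same manner, and these ratios among the 3 genes were chosen after the data were seen. Per 100 Emp2 counts there were 2.11, 1.51 and 2.65 Drc1 counts in control replicates 1 to 3 and 2.51, 2.87, 2.35 and 2.50 in IA LPS replicates 1 to 4, groups that overlapped. The difference in the mean log2 ratio was 0.33 against Emp2 and 0.29 against Cldn18 (p = 0.229 for each, exact two-sided permutation test), so a larger increase of Drc1 than of the type 1 cell genes was not resolved with these lungs. In all 6 ratios were compared, and after Benjamini-Hochberg adjustment over them the exact permutation p-values were 0.114 for the 3 ratios to Nkx2-1, 0.274 for both ratios of Drc1 to type 1 cell genes and 0.629 for Emp2 to Cldn18. Before adjustment each of the 3 ratios to Nkx2-1 had p = 0.0571, the smallest that the exact two-sided permutation test can give for 3 lungs against 4.

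Across the 7 lungs, which include the difference between the groups, log2 CPM of Emp2 and Cldn18 had a Pearson correlation of 0.978. Among 14316 other tested genes that averaged 1 CPM or more, Cldn18 was the gene of rank 4 in likeness to Emp2, and Emp2 the gene of rank 5 in likeness to Cldn18. Nkx2-1 correlated less with them, at 0.621 with Emp2 and 0.709 with Cldn18. Drc1 correlated at 0.850 with Emp2, 0.817 with Cldn18 and 0.228 with Nkx2-1.

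The gene most like Emp2 was Mmp8 (ENSRNOG00000009907), the collagenase of neutrophils, with a correlation of 0.987. It had 6, 26 and 14 counts in control replicates 1 to 3 and 82, 48, 45 and 69 in IA LPS replicates 1 to 4, so it followed Emp2 in the order of the lungs at far fewer counts. Mmp8 was also the gene of rank 2 for Cldn18, at 0.984. For Drc1 the closest gene with a name was Mgst1 (ENSRNOG00000007743), a membrane-bound glutathione transferase, at rank 4 with a correlation of 0.990. Its values were 25.7, 27.7 and 35.4 CPM in control replicates 1 to 3 and 52.0, 53.5, 40.8 and 52.4 CPM in IA LPS replicates 1 to 4. As with Drc1, control replicate 3 was the highest control and IA LPS replicate 3 the lowest IA LPS lung. For Nkx2-1 none of the 5 most similar genes had a name, and the closest, ENSRNOG00000007943, had a correlation of 0.976 and shared its peak among controls in replicate 2, at 7.80 CPM against 5.10 and 5.41 CPM.

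Further genes of the same cell types were read from lists of markers, for which names were paired with few identifiers. Nearly all names came from tables of genes sorted as up or down in the placenta after the same injection, on a threshold those tables did not state, so the genes that could be named are not a random sample. The lists were also chosen with earlier results of these data known, and they count Emp2, Cldn18 and Drc1 again. For type 1 cells 5 of 29 listed genes had an identifier and 4 were tested. Of these, 3 were called induced, Emp2 and Cldn18 among them, beside 1.4% of all tested genes. Without a filter edgeR called 1, beside 178 of 19823 genes. The median log2 fold change was 0.65, beside 0.01 over all tested genes. The third called gene was Clic3 (ENSRNOG00000015184), an intracellular chloride channel protein, at 30.5, 48.2 and 47.4 CPM in control replicates 1 to 3 and 106, 107, 82.4 and 164 CPM in IA LPS replicates 1 to 4. Its groups lay well apart, with a log2 fold change of 1.45 and an SE of 0.256 (adjusted p = 0.0489 by edgeR's quasi-likelihood test with Benjamini-Hochberg adjustment). Clic3 was called relative to Nkx2-1 as well, with a log2 fold change of 1.38 (adjusted p = 0.0555, edgeR), but its call in CPM was lost without control replicate 1 (1.27), control replicate 2 (1.56), control replicate 3 (1.55) or IA LPS replicate 2 (1.49).

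Col4a4 (ENSRNOG00000014851), a chain of basement membrane collagen, was at 38.4, 47.8 and 40.0 CPM in control replicates 1 to 3 and at 57.5, 49.8, 52.1 and 31.1 CPM in IA LPS replicates 1 to 4. IA LPS replicates 1 to 3 were above the controls and replicate 4 was below them, and the gene was not called in either set (log2 fold change 0.18, and 0.34 without IA LPS replicate 4). Aqp5, the water channel of the type 1 cell surface, had too few counts to be tested, with 2, 2 and 3 in control replicates 1 to 3 and 10, 11, 8 and 3 in IA LPS replicates 1 to 4. IA LPS replicate 4, high in Emp2, Cldn18 and Clic3, was thus not above the controls in Col4a4 and reached only the highest control in Aqp5.

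Of 23 pan-epithelial genes, 3 had an identifier and were tested. edgeR called 0 of them, beside 1.4% of all tested genes induced. DESeq2 and limma-voom also called 0, beside 424 and 188 of the 15750 genes called induced. At an unadjusted p under 0.05 there was 1, beside 2494 of all 15750 tested genes. Their median log2 fold change was 0.08. Foxa1 (ENSRNOG00000009284), a transcription factor of endoderm, was at 49.6, 42.0 and 36.6 CPM in control replicates 1 to 3 and at 42.2, 57.0, 59.2 and 16.0 CPM in IA LPS replicates 1 to 4. IA LPS replicate 4 was lowest by far and the groups overlapped, so that the log2 fold change was 0.03 with this lung and 0.30 without it, and -0.12 with limma-voom. Cldn3 (ENSRNOG00000046007), a claudin found throughout the lung epithelium, was at 95.2, 94.7 and 108 CPM in control replicates 1 to 3 and 114, 118, 106 and 142 CPM in IA LPS replicates 1 to 4. Its log2 fold change of 0.28 was the 1 of the 3 with an unadjusted p under 0.05 (adjusted p = 0.306 by edgeR's quasi-likelihood test with Benjamini-Hochberg adjustment).

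In the place of Nkx2-1, the geometric mean of Foxa1 and Cldn3 gave log2 fold changes of 0.61 for Emp2, 0.65 for Cldn18 and 0.93 for Drc1, with larger standard errors of 0.289, 0.298 and 0.324. These were not called (adjusted p = 0.565, 0.559 and 0.417, edgeR's quasi-likelihood test with Benjamini-Hochberg adjustment). Over the alternatives to the Nkx2-1 fit the adjusted p ran from 0.0999 to 0.565 for Emp2, 0.0748 to 0.559 for Cldn18 and 0.141 to 0.572 for Drc1.

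Of 56 cilia genes 6 had an identifier and 5 were tested. Beside 1.4% of all tested genes, 3 of the 5 were called induced, with a median log2 fold change of 0.76. Of the 5, limma-voom called 2, beside 188 of all 15750 genes, and edgeR without a filter 1, beside 178 of 19823. Besides Drc1 the 3 called genes were Dnaaf1 (ENSRNOG00000015590), a factor for the assembly of dynein arms, and Tekt2 (ENSRNOG00000011033), a filament protein of the axoneme, the microtubule core of a cilium. Dnaaf1 was at 4.49, 3.70 and 5.06 CPM in control replicates 1 to 3 and 8.10, 9.70, 6.21 and 10.5 CPM in IA LPS replicates 1 to 4, a log2 fold change of 0.96 and an SE of 0.216 (adjusted p = 0.0904 by edgeR's quasi-likelihood test with Benjamini-Hochberg adjustment). Tekt2 was at 6.83, 8.54 and 8.85 CPM in control replicates 1 to 3 and 12.5, 12.5, 12.7 and 17.0 CPM in IA LPS replicates 1 to 4, a log2 fold change of 0.76 and an SE of 0.167 (adjusted p = 0.0862, edgeR). For both, all IA LPS lungs were above all controls, as for 10.6% of tested genes, and both had their highest value in IA LPS replicate 4. Both calls were lost without control replicate 1, 2 or 3 or IA LPS replicate 1 or 2, and that of Tekt2 also without IA LPS replicate 3, with log2 fold changes from 0.85 to 1.09 for Dnaaf1 and 0.63 to 0.83 for Tekt2 over the 7 fits. Without a filter Dnaaf1 (0.96, adjusted p = 0.1003, edgeR) and Tekt2 (0.75, adjusted p = 0.1003, edgeR) were not called, nor was Dnaaf1 with limma-voom (0.94, adjusted p = 0.113, Benjamini-Hochberg).

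Ccdc40, which sets the length of repeats along the axoneme, and Cfap53, another protein of the axoneme, were tested and not called, with log2 fold changes of 0.46 and 0.21. For Ccdc40 too every IA LPS lung was above every control, at 4.19 to 5.71 against 3.58 to 3.73 CPM, while the groups of Cfap53 overlapped. Spag6, a protein of the central pair of cilia, had too few counts to be tested, with 0, 1 and 2 in control replicates 1 to 3 and 3, 4, 5 and 4 in IA LPS replicates 1 to 4. None of the cilia genes was called relative to Nkx2-1, beside only 0.4% of 15749 genes called induced on that scale. There edgeR gave Dnaaf1 a log2 fold change of 0.86 (adjusted p = 0.209, Benjamini-Hochberg) and Tekt2 one of 0.67 (adjusted p = 0.172).

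**Figure D3:**
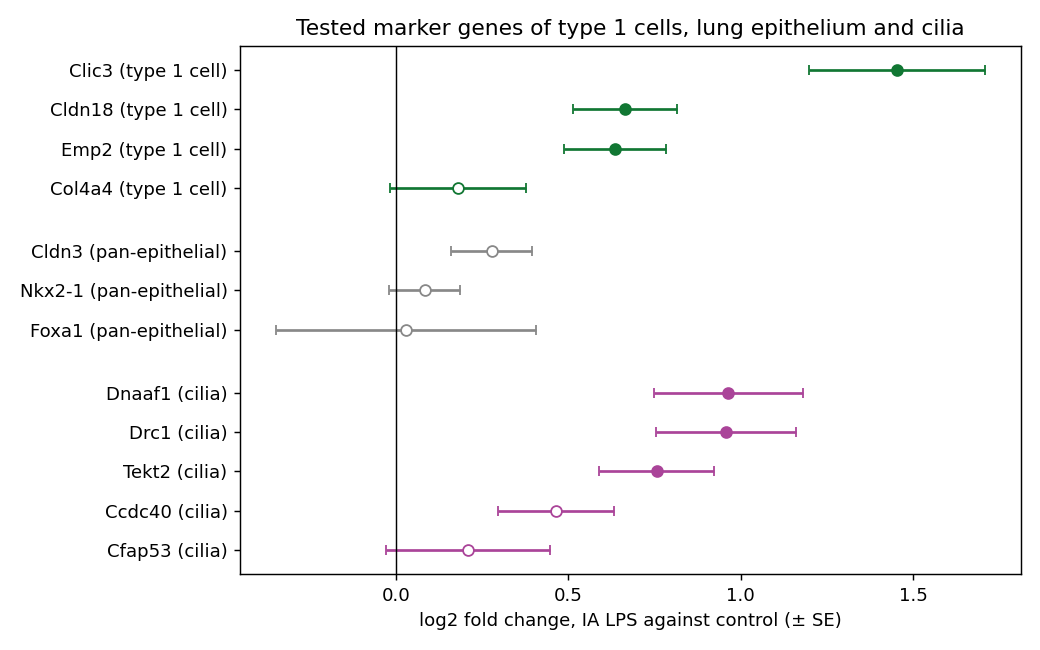
Log2 fold change of IA LPS against control lungs with its SE for the tested marker genes of type 1 cells, of the whole lung epithelium and of cilia, over 7 lungs; filled points were called and open points were not. Emp2 (0.63) and Cldn18 (0.66) lie between Clic3 (1.45) and Col4a4 (0.18), the pan-epithelial genes lie at 0.28 or below, and the cilia genes run from 0.21 to 0.96.

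A wider view of the cilium came from gene ontology terms attached to induced genes of IA LPS replicates 1 to 3 and the controls, which hold Drc1. These lists hold genes already called induced on the same lungs. Neither their direction nor the number called by any tool is therefore independent evidence. Under axoneme assembly, 18 of 18 genes were tested and 9 were called induced over the 7 lungs, beside 1.4% of all tested genes. Of the 18, limma-voom called 4, beside 188 of all 15750 genes, and DESeq2 called 16, beside 424 of 15750. Without a filter edgeR called 3, beside 178 of 19823. Without IA LPS replicate 4 all 18 were called, beside 2.17%, which restates how the list was made. Their log2 fold changes ran from 0.59 to 1.26 with a median of 0.93, and Drc1 was the gene of rank 7. Summed over the 18 genes, the controls held 88.6, 84.7 and 103 CPM in replicates 1 to 3 and the IA LPS lungs 178, 168, 152 and 159 CPM in replicates 1 to 4, so the order of the extreme lungs was that of Drc1, with control replicate 3 the highest control and IA LPS replicate 3 the lowest IA LPS lung.

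Under cilium movement, 21 of 24 listed genes could be read, since the list used here was shortened. Of these, 12 were called induced over the 7 lungs, beside 1.4% of all tested genes, with a median log2 fold change of 0.86 and Drc1 at rank 5. Of the 21, limma-voom called 8, beside 188 of all 15750 genes, and DESeq2 called 19, beside 424 of 15750. Without a filter edgeR called 6, beside 178 of 19823. Without IA LPS replicate 4 all 21 were called, beside 2.17%, again by the making of the list. The numbers called over the 7 lungs, by each tool, rest in part on the same choice. Without control replicate 1, 2 or 3 or IA LPS replicate 2, edgeR called 0 genes of either term. These fits called only 1, 1, 2 and 1 genes induced in the whole table. Without IA LPS replicate 1 edgeR called 1 and 4, beside 126 in the whole table. Without IA LPS replicate 3 it called 3 and 5, beside 127.

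The Emp2 family and the claudins were read for relatives of the type 1 cell genes. Emp3 (ENSRNOG00000021104), the other member of the Emp2 family with an identifier, was at 121, 107 and 104 CPM in control replicates 1 to 3 and 105, 109, 106 and 160.1 CPM in IA LPS replicates 1 to 4. Its groups overlapped, and the log2 fold change of 0.11 was carried by IA LPS replicate 4, without which it was -0.06. Of 3 claudins and tight junction genes tested, Cldn18 alone was called induced, beside 1.4% of all tested genes. Cldn1 had at most 80 counts in a lung and a log2 fold change of 0.52 (adjusted p = 0.603 by edgeR's quasi-likelihood test with Benjamini-Hochberg adjustment). No gene of the YAP and TEAD list, whose factors act on type 1 cell genes, had an identifier.

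Type 2 cells are the other cells of the alveolar epithelium, and 1 of 3 tested genes of their list was called induced, beside 1.4% of all tested genes. Sftpc, the surfactant protein gene with the highest counts in the list, was at 478, 588 and 667 CPM in control replicates 1 to 3 and at 729, 986, 829 and 1222 CPM in IA LPS replicates 1 to 4. The groups did not overlap, but Sftpc was not called (log2 fold change 0.70, SE 0.194, adjusted p = 0.145 by edgeR's quasi-likelihood test with Benjamini-Hochberg adjustment), while DESeq2 and limma-voom with sample weights called it, with adjusted p from 0.0158 to 0.487 over the alternatives. The called gene was Sftpd, a collectin of the surfactant, with a log2 fold change of 2.88, and its call was lost without control replicate 1 (2.75), control replicate 2 (2.70), control replicate 3 (3.27) or IA LPS replicate 2 (2.88). The log2 fold change of Sftpc was thus of the size of those of Emp2 and Cldn18, with a larger SE. All 3 type 2 cell genes had an unadjusted p under 0.05 with edgeR, beside 2494 of 15750. Relative to Nkx2-1, Sftpd was called (log2 fold change 2.78, adjusted p = 0.0413, edgeR with Benjamini-Hochberg), beside 0.4% of 15749 genes called induced. Sftpc (0.61) and the third gene of the list (0.42) were not.

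RNA of genes on the heart list, called heart RNA here, differed among the lungs, and its source was not tested. The 2 heart genes with an identifier summed to 215, 12.1 and 53.9 CPM in control replicates 1 to 3 and to 53.6, 52.6, 25.04 and 110.0 CPM in IA LPS replicates 1 to 4, with Tnnt2 the more abundant on average over the lungs and neither at 0 in any of them. Control replicate 1, with the most heart RNA among the controls, had the lowest Emp2, Cldn18 and Nkx2-1, and control replicate 2, with the least, had the highest. In Emp2 and Cldn18 the IA LPS lungs did not follow that order. Replicate 4, with the most heart RNA, had the highest Cldn18 and replicate 3, with the least, had the lowest Emp2. In Nkx2-1 replicate 3 was the highest IA LPS lung, at 377 CPM, and replicate 4, at 365 CPM, was not the lowest. Relative to Nkx2-1 the controls lay closer together in Emp2 and Cldn18, though not in Drc1, as given above. Without control replicate 1 and IA LPS replicate 4, the lungs richest in heart RNA of each group, the log2 fold changes were 0.50 for Emp2, 0.49 for Cldn18, 0.85 for Drc1 and 0.01 for Nkx2-1, a set chosen after the values were seen in which none of the 4 was called. That set also leaves out the lung that stood apart on the first component, and the part of heart RNA in the results was not tested.

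The 4 of 7 leukocyte genes with an identifier summed to 157, 177 and 233 CPM in control replicates 1 to 3 and to 328, 274, 263 and 180.0 CPM in IA LPS replicates 1 to 4, with Lyz2 the most abundant and none at 0. edgeR called 0 of the 4 over the 7 lungs, beside 1.4% of all tested genes induced, with 2 at an unadjusted p under 0.05, beside 2494 of 15750. DESeq2 called 2 and limma-voom 1, beside 424 and 188 of the 15750 genes called induced. Their median log2 fold change was 1.00 and all 4 were positive, and without IA LPS replicate 4 edgeR called 2 of them, beside 2.17% of all tested genes, namely Lyz2 (0.61) and S100a9, a protein of neutrophils (1.89). In the sum IA LPS replicate 4 was within the range of the controls because of Lyz2, at 148 CPM against 137 to 209.6 CPM, while in the 3 other genes it was above every control. The 7 of 8 erythroid genes summed to 353, 277 and 417 CPM in control replicates 1 to 3 and 275, 572, 371 and 417 CPM in IA LPS replicates 1 to 4, groups that overlapped, with Slc4a1 the most abundant on average over the lungs. The part of leukocytes and blood in the results was not tested.

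Nkx2-1 is also a thyroid gene and Cldn18 has a form made in the stomach, so markers of these organs were read. The 3 of 5 thyroid genes with an identifier summed to 13.8, 18.8 and 10.9 CPM in control replicates 1 to 3 and 14.9, 15.8, 15.9 and 18.0 CPM in IA LPS replicates 1 to 4. The groups overlapped, and Slc5a5, an iodide transporter, was the most abundant on average over the lungs. Of the 7 stomach genes 2 had an identifier, and these had 0 counts in every lung apart from 1 count of Tff2 in IA LPS replicate 1, all under the floor. RNA of thyroid or stomach as a source of Nkx2-1 or Cldn18 was not tested.

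The lists of distal progenitors, basal cells, neuroendocrine cells, endothelium, mesothelium and thymus had 10 tested genes between them. Rag1, of the thymus list, had 764 counts in IA LPS replicate 2, against 11 to 29 in the other lungs (log2 fold change 3.30). Krt5, of the basal cell list, ran from 5 counts in control replicate 2 to 904 in IA LPS replicate 1. The source of this RNA was not tested. All 10 genes are counted here. edgeR called 0 of these, with 3 at an unadjusted p under 0.05, beside 1.4% of all tested genes called induced and 2494 of 15750 at that p. DESeq2 called 2 and limma-voom 0, beside 424 and 188 of the 15750 genes called induced. No gene of the erythroid (7), thyroid (3) or heart (2) list was called by any of the 3 tools, and edgeR gave 0 of them an unadjusted p under 0.05, beside the same shares of all tested genes and 0.508% called suppressed by edgeR. The secretory cell and mesenchyme lists had no gene with an identifier.

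Promoter windows of the 4 genes are shown because Emp2, Cldn18 and Drc1 were called induced and Nkx2-1 was not. They were taken from a RefSeq table (build GRCr8) of 300 bases for each gene, 5′ to 3′ on the strand of the gene, and all 4 genes had an entry. The window of Emp2 spans the outer start of its gene, whereas those of Cldn18, Nkx2-1 and Drc1 lie wholly within the annotated span of the gene, beginning 241 to 835 bases past its outer start. Letters of 4 motifs were searched on both strands: CTCAAG or CTTGAG of NKX2-1, GGAATG or CATTCC of TEAD factors, GTTGCC or GGCAAC of RFX factors, which act on cilia genes, and TGTTTAC or GTAAACA of forkhead factors. Capitals mark a match, and no match overlaps another.
The Emp2 window is at chr10:5866619-5866918 on the plus strand, that of Cldn18 at chr8:109144570-109144869, that of Nkx2-1 at chr6:79734818-79735117 and that of Drc1 at chr6:31779207-31779506, each of these 3 on the minus strand.
Emp2: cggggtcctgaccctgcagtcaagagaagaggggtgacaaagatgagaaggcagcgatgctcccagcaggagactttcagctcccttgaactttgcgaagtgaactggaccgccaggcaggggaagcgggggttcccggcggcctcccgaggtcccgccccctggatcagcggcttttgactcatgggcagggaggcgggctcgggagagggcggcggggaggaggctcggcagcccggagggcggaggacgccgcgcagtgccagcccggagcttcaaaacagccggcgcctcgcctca
Cldn18: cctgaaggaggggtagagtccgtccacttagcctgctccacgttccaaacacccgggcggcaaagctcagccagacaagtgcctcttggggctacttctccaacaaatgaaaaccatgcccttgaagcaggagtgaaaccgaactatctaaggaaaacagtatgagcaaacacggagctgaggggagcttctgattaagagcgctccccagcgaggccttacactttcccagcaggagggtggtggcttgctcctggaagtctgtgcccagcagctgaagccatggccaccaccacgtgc
Nkx2-1: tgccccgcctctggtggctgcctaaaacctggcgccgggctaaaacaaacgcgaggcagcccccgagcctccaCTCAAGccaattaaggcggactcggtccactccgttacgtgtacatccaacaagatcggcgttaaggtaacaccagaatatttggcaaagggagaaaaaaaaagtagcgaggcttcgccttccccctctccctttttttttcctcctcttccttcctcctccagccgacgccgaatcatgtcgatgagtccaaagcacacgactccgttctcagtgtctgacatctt
Drc1: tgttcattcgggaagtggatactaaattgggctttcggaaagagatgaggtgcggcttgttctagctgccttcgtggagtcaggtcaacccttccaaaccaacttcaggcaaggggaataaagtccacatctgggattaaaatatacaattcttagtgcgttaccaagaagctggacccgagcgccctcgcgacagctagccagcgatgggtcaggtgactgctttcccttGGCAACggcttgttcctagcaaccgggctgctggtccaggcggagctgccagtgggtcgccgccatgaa
The window of Nkx2-1 held CTCAAG once, at bases 74 to 79, letters that 15.8% of 33469 promoters of this length hold on either strand. The window of Drc1 held GGCAAC once, at bases 232 to 237, letters held by 12.2% of the promoters. Neither Emp2 nor Cldn18 held any of the 4 motifs in this window, and 14.2% of promoters held that of TEAD factors and 3.78% that of forkhead factors. A match is a description, not a site or a cause. The share of G and C was 68% in Emp2, 56.3% in Cldn18 and 54% in both Nkx2-1 and Drc1, with a median of 51.7% over all promoters.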

How the data were processed

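The values were per-gene estimated counts that the authors deposited without normalization, made by assigning reads to rat transcripts with kallisto (genome build named as rno6.0) and summing to genes with tximport; versions and the annotation release were not given in the sources used here. They were rounded to whole numbers. Reads shared with near-identical genes were divided by estimate. edgeR 4.0.16, DESeq2 1.42.0 and limma 3.58.1 were run in R 4.3.3. Genes were filtered with filterByExpr, scaled with TMM and tested with edgeR's quasi-likelihood test on condition alone, with Benjamini-Hochberg adjustment over all tested genes, and were checked on simulated counts. Relative to Nkx2-1, the log of its count was the offset, so scaling between lungs came from that gene alone. Log2 CPM used a prior count of 2. Intervals use the test's degrees of freedom. Replicates of a group differed by more than sampling noise. Names came from tables pairing 2070 identifiers with names, of which 1312 were tested. Named genes are the 4 members, genes of the type 1 cell, pan-epithelial, cilia, Emp2 family and claudin lists, in other lists those called and the most abundant, and the 5 genes most correlated with each member. The members and lists were chosen with earlier results of these data known.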

Additional observations from a re-analysis of the deposited data

Results flagged for a closer look

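Among 42 quantities whose 4 IA LPS lungs were examined for a lung far from the rest of its group, 3 had one, and chance alone gives about 1 in 20. Tekt2 was at 17.0 CPM in IA LPS replicate 4, against 12.5 to 12.7 CPM in the other IA LPS lungs. Emp3 was at 160.1 CPM in IA LPS replicate 4, against 105 to 109 CPM in the others. Mgst1 was at 40.8 CPM in IA LPS replicate 3, against 52.0 to 53.5 CPM in the others. The sum of the 2 thymus genes was not among the 42 quantities. It was 28.4 CPM in IA LPS replicate 2, against 1.07 to 1.36 CPM in the other IA LPS lungs. No value of Emp2, Cldn18, Nkx2-1 or Drc1, in CPM or as a ratio to another of the 4, stood apart in this way.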

How the results depend on the processing

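The directions of Emp2, Cldn18, Nkx2-1 and Drc1 were the same under all 16 alternatives to the fit of 7 lungs, and those of the 3 ratios to Nkx2-1 under all 12 of theirs, none of which called a ratio. Nkx2-1 was called in none of its 16, with log2 fold changes from 0.01 to 0.19. The call of Emp2 was kept under 7 alternatives, that of Cldn18 under 8 and that of Drc1 under 9. Leaving out 1 lung in turn gave 0.54 to 0.78 for Emp2, 0.55 to 0.85 for Cldn18 and 0.88 to 1.13 for Drc1, with the calls made only without IA LPS replicate 4. Emp2 also lost its call without a filter (0.63) and with DESeq2's size factors (0.63), and Cldn18 without a filter (0.66); adjusted p-values ran from 0.00467 to 0.389 for Emp2, 0.00275 to 0.361 for Cldn18 and 0.00196 to 0.318 for Drc1. Without both control replicate 1 and IA LPS replicate 4, chosen after seeing the data, Emp2 (0.50), Cldn18 (0.49) and Drc1 (0.85) were not called. The cause was not tested.

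The count of induced genes, 220, ran from 1 to 339 over the fits that left out 1 lung, and was 424 with DESeq2, 463 with limma-voom and sample weights and 87 at an adjusted p under 0.05. That of suppressed genes, 80, ran from 0 to 176 over the former, and was 206 with DESeq2, 252 with limma-voom and sample weights, 37 at an adjusted p under 0.05 and 134 without a fold threshold. The fit that gave 0 suppressed genes without control replicate 2 had 1758 genes at an unadjusted p under 0.05, and that without IA LPS replicate 2 had 1922.

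Replicate numbers are shared between the groups, but lungs of the same number did not deviate together (correlations 0.145, -0.0558 and -0.193). With the replicate number as a replicate block, in which IA LPS replicate 4 has no partner, the log2 fold changes were 0.60 for Emp2, 0.62 for Cldn18, 0.08 for Nkx2-1 and 0.93 for Drc1, with the same calls, and 0.51, 0.53 and 0.85 relative to Nkx2-1; 286 genes were induced and 152 suppressed. Dnaaf1 lost its call with the block (0.84, adjusted p = 0.108, edgeR with Benjamini-Hochberg). Alternatives for other named genes were chosen after seeing the data. Among these, Emp3 turned negative without IA LPS replicate 4 (-0.056), with the block (-0.052) and with sample weights (-0.048), and Foxa1 with limma-voom (-0.12) and in fits that left out 1 lung (-0.15 to 0.30). Epcam as the reference was not run, because its name was not paired with an identifier. Among the 4 genes Drc1 had the fewest counts, 60 in its lowest lung.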
